A study of Homo sapiens with 4 samples.

Results

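The genes described here are members of the p53 family, regulators of p53 and genes that p53 is known to switch on, chosen by symbol as a list of 33. Of these, 30 had at least 1 probe set that the platform annotation paired with that symbol alone, 80 probe sets in all, among 54675 probe sets and 19775 genes on the array. TP63, BTG2 and FDXR were not analysed here. CDKN1A, which encodes the cell cycle inhibitor p21, is outside the list and is the gene against which it was set. The question was whether other p53 targets followed CDKN1A, which was higher in both lines after TTF-1 depletion. Transcript levels were read on 1 Affymetrix array for each of 4 groups of cells, from NCI-H209 and Lu139, both established lines of human small cell lung carcinoma. The groups were NCI-H209 electroporated with siRNA against TTF-1 (siTTF-1), NCI-H209 with control siRNA (siNTC), Lu139 with siTTF-1 and Lu139 with siNTC. All 4 groups had therefore been electroporated with an siRNA. The sources used here state neither the siRNA sequences nor the time between electroporation and harvest, nor the p53 status of the lines.

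p53 is a transcription factor that accumulates after DNA damage and other stress and arrests the cell cycle, directs repair or triggers cell death through its target genes. MDM2, itself a target, marks p53 for degradation, and MDM4 blocks its activity, so that the pathway restrains itself. p63 and p73 are related factors that can bind the same DNA sites. Most small cell lung cancers carry inactivating mutations of p53, and several genes of the list, such as GDF15, GADD45A and CDKN1A itself, are also switched on by other factors.

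With 1 array per group, a difference within a line has no replicate check and no test. The siRNA effect is replicated only by having 2 lines, and precision is limited throughout by the number of arrays. A fold change below is siTTF-1 over siNTC on the log2(intensity + 18.7) scale, which understates changes of dim genes. A gene was called expressed in a line if the mean of its siTTF-1 and siNTC arrays, taken on that scale, exceeded the value of an intensity of 37.0. For the siRNA effect over both lines, limma was run on the 14547 genes whose mean over all 4 arrays exceeded that limit, with line as a block and p-values adjusted over all of them. Nothing in the labels says that arrays came from separate cultures, and no group had a second array. The scatter behind the p-values is the difference in siRNA effect between the lines, moderated by that of all genes. It does not measure the spread between cultures, and how much of it is technical cannot be told. The same scatter serves the comparison of the lines, where the siTTF-1 and siNTC arrays of a line stand in as its replicates. NKX2-1, which encodes TTF-1, was at 40.7% of siNTC in NCI-H209 and 59.1% in Lu139. In these bulk samples fewer cells expressing a gene and less RNA per cell cannot be told apart. All 7 small cell and epithelial markers with a value were above the expression limit in both lines. Of 10 markers of fibroblasts, leukocytes and endothelium, 5 were above it in both lines (COL1A1, DCN, CD3E, PECAM1 and VWF) and 5 in neither (COL1A2, LUM, PTPRC, LYZ and CDH5), with intensities from 5.77 to 362 over all 10. Their part in the results was not tested.

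Promoter sequences are shown for 3 members. They set the member that was highest after siTTF-1 beside a pair of members with an exact match to a 10-letter p53 consensus near their start. Each is 300 bases from the RefSeq table of GRCh38.p14, 250 before and 50 after the annotated start, on the strand of the gene. The sequence of GDF15 is at chr19:18385908-18386207 on the + strand, that of AEN at chr15:88621090-88621389 on the + strand and that of RPS27L at chr15:63157428-63157727 on the - strand. Capitals mark the TATA box letters TATAAA in GDF15 and matches to the p53 decamer consensus in AEN and RPS27L.
GDF15: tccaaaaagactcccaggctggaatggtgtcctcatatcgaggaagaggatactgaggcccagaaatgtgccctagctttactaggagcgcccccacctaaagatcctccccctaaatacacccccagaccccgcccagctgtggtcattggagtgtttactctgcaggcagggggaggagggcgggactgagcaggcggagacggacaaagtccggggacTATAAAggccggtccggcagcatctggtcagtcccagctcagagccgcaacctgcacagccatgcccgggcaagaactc
AEN: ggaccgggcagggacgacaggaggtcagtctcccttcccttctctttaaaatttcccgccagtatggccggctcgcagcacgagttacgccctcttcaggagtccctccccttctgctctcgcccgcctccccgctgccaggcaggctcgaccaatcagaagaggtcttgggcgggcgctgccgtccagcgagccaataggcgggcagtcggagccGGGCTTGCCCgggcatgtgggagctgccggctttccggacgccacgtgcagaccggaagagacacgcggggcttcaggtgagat
RPS27L: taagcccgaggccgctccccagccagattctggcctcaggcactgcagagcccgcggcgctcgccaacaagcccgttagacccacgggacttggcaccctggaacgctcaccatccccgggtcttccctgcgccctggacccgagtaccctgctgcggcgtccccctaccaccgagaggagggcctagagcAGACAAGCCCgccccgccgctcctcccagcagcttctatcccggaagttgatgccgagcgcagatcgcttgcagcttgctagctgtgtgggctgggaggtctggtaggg
Of the 33 members, 30 had a promoter in the table, and both strands of each were searched. The p53 decamer, a 10-letter consensus of which a full p53 site holds a pair, was found in 4 of them, PLK2, RPS27L, AEN and FDXR, and in 6.54% of all 27303 promoters of this length. TATAAA was found in 4, GDF15, GADD45B, BTG1 and TP63, against 12.0% of all promoters. TGATGNAAN, letters bound by ATF4 with its partners, was found in PLK3 and GADD45G, against 3.67% of all promoters. The promoters of GDF15 and CDKN1A held no decamer match in this window, which says only that these letters are not there. Only exact matches were searched for, so a p53 site with mismatches would not have been found in any promoter. Of those that hold one, the siTTF-1 log2 fold change of AEN was 0.12 for NCI-H209 and 0.05 for Lu139. That of RPS27L was -0.15 for NCI-H209 and 0.08 for Lu139.

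None of the 29 members that entered the limma test passed it. Of all 14547 genes, 0% passed upward and 0% downward at an adjusted p under 0.05, and the smallest adjusted p among members was 0.115, that of MDM4. At an unadjusted p under 0.05, 7 members were higher (24.1%) and 3 lower (10.3%), against 7.23% and 9.25% of all genes tested. The members were chosen with earlier results of these data known, so these shares do not test the list. In a fit without the line term, which leaves the difference between the lines in the scatter, both counts of members were 0. The shares of all genes were then 0.0206% and 0.117%. The 7 were GDF15, GADD45A, SPATA18, CCNG1, TOB1, ACER2 and PERP, and the 3 were MDM4, ZMAT3 and CCNG2. Of the 28 members expressed in both lines, 14 were higher in both, 4 lower in both and 9 of opposite sign, and EDA2R had exactly equal values. Among all 13306 genes expressed in both lines, 37.7% were higher in both, 27.5% lower in both and 34.8% of differing sign, a value of 0 in 1 line included. The median log2 fold change of these 28 members was 0.10 in NCI-H209 and 0.06 in Lu139, against 0.01 and 0.03 over all genes.

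No member had a change as large as that of CDKN1A. Among genes expressed in Lu139 this was fixed in advance, because CDKN1A ranked 1 there, so it does not say whether members followed. CDKN1A had intensities of 1580 with siTTF-1 and 483 with siNTC in NCI-H209, and 681 with siTTF-1 and 329 with siNTC in Lu139. Its log2 fold changes of 1.67 and 1.01 ranked 3 from the highest of the expressed genes in NCI-H209 and 1 in Lu139 (limma adjusted p = 0.0713). With quantile normalization over the 4 arrays CDKN1A passed the test (limma adjusted p = 0.0246), while no member did. At 1.5-fold, 1 member was higher in NCI-H209 (background 1.09% of 14632 expressed genes) and 1 lower (background 3.52%). In Lu139, 0 members were 1.5-fold higher (background 0.193% of 13996 genes) and 0 lower (background 0.936%). No member passed 1.5-fold in both lines, as did 0.0451% of genes upward and 0.376% downward. With 1 array per siRNA in each line, a difference in effect between the lines could not be tested for any member.

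**Figure D1:**
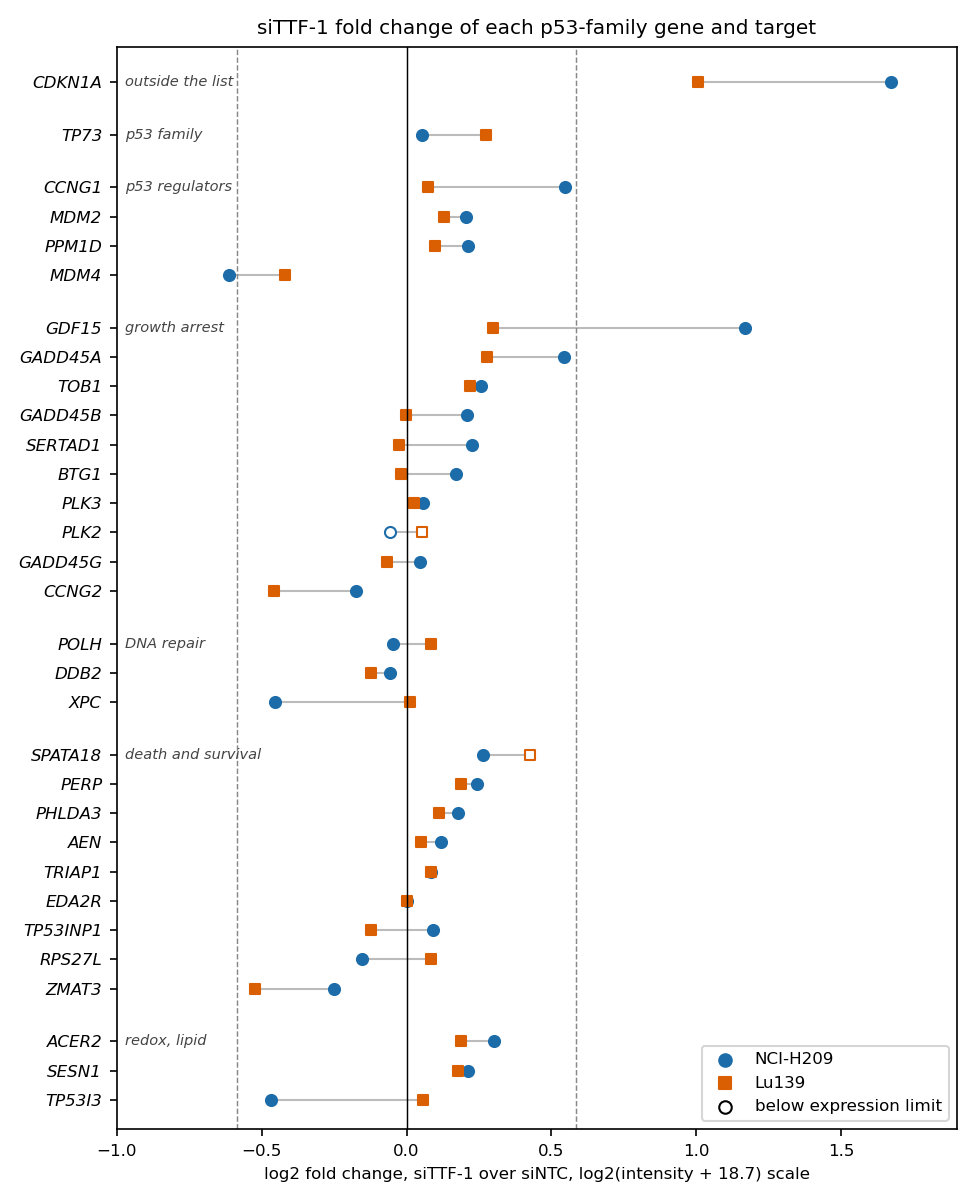
Log2 fold change, siTTF-1 over siNTC (horizontal axis), of CDKN1A and the 30 members with a value, grouped by role. Circles are NCI-H209 and squares Lu139, 1 array per siRNA each, open where the gene was below the expression limit; dashed lines mark 1.5-fold. CDKN1A, whose value ranked 1 of expressed genes in Lu139, stands to the right of every member in both lines. GDF15 lies past the upper line in NCI-H209 alone, and MDM4 lies left of 0 in both.

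The p53 family itself was represented by TP73. Its intensities were 113 with siTTF-1 and 108 with siNTC in NCI-H209, and 76.6 with siTTF-1 and 60.1 with siNTC in Lu139. These are dim values, and the log2 fold changes were 0.05 and 0.27 (limma adjusted p = 0.438). The other TP73 probe sets had log2 fold changes between -0.04 and 0.21, and 1 of them was exactly equal between siTTF-1 and siNTC in NCI-H209.

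Among the regulators of p53, MDM4 was lower with siTTF-1 in each line, while MDM2 and PPM1D had small positive values. MDM4 encodes a relative of MDM2 that binds p53 and blocks its transactivation domain. MDM4 had intensities of 733 with siTTF-1 and 1131 with siNTC in NCI-H209, and 759 with siTTF-1 and 1022 with siNTC in Lu139. The siTTF-1 array was the lower one in each line. The log2 fold changes were -0.61 and -0.42, a mean of -0.52 (SD 0.14, n = 2 lines; limma 95% interval -0.76 to -0.28), with a limma adjusted p of 0.115. In each line 5 of its 6 probe sets were lower with siTTF-1. The exception was among its dimmest and had 0.07 and 0.03. As the mean of all 6, the values were -0.39 for NCI-H209 and -0.30 for Lu139, no longer 1.5-fold. Under quantile normalization over the 4 arrays it had -0.58 in NCI-H209, just inside 1.5-fold.

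MDM2, the ubiquitin ligase that p53 induces and that removes p53, had intensities of 939 with siTTF-1 and 811 with siNTC in NCI-H209. In Lu139 it had 1541 with siTTF-1 and 1407 with siNTC. The log2 fold changes of 0.21 and 0.13 (limma adjusted p = 0.397) were small. Of its 10 probe sets, 7 were higher in NCI-H209 and 5 in Lu139. The 5 above the expression limit in NCI-H209 were all higher, from 0.02 to 0.45. The 6 above it in Lu139 ran from -0.16 to 0.14. PPM1D, the phosphatase that removes activating phosphates from p53, had log2 fold changes of 0.21 and 0.10 (limma adjusted p = 0.444), and both of its probe sets were higher in both lines. CCNG1 encodes cyclin G1, a p53 target that works with MDM2 and a phosphatase. It had intensities of 3922 with siTTF-1 and 2680 with siNTC in NCI-H209, and 1469 with siTTF-1 and 1396 with siNTC in Lu139. Its log2 fold change of 0.55 in NCI-H209 was just under 1.5-fold and ranked 197 from the highest there, whereas in Lu139 it was 0.07. Its mean was 0.31 (SD 0.33, n = 2 lines; limma adjusted p = 0.276).

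**Figure D2:**
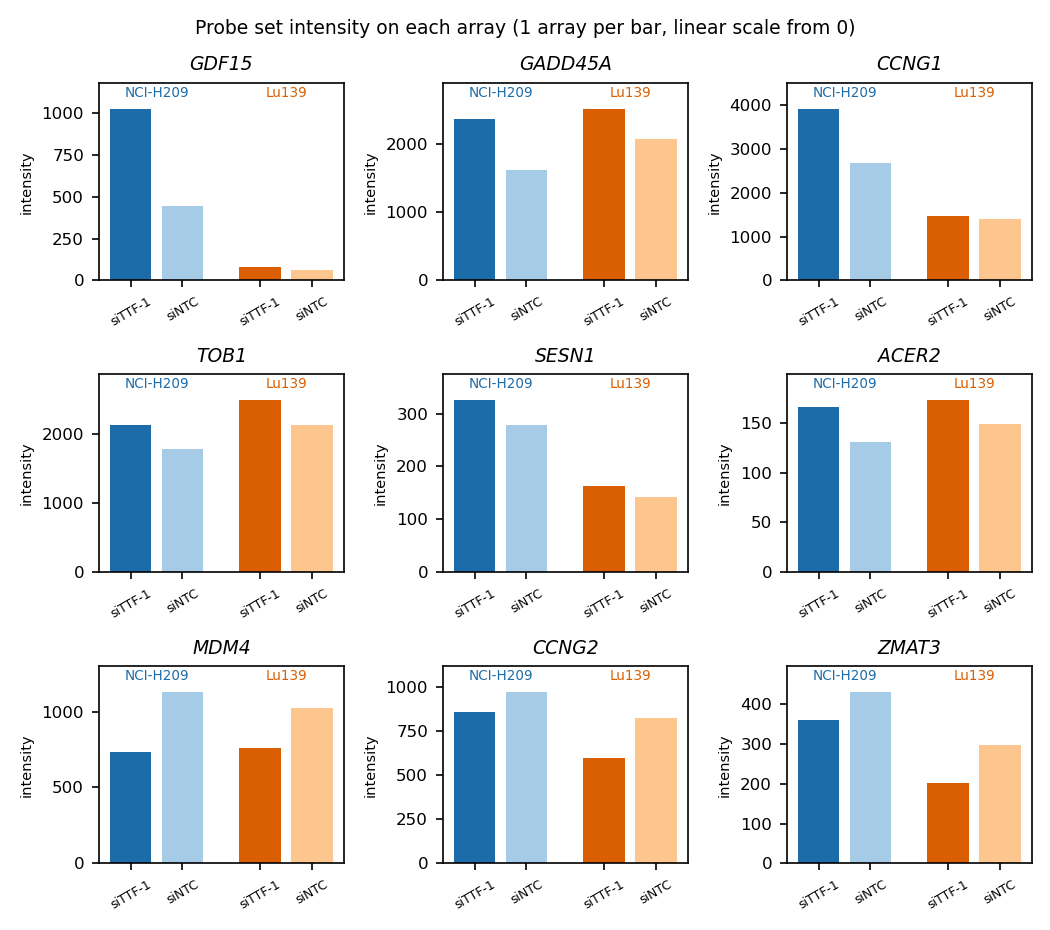
Probe set intensity (vertical axis, linear scale from 0) of 9 members on each of the 4 arrays, siTTF-1 left of siNTC within each line; each bar is 1 array, so there are no error bars. The bars of the upper 6 genes are taller with siTTF-1 in both lines and those of MDM4, CCNG2 and ZMAT3 are shorter; GDF15 is at 1027 with siTTF-1 and 447 with siNTC in NCI-H209 but at 79.4 with siTTF-1 and 61.1 with siNTC in Lu139.

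The growth-arrest genes had the largest positive value of the list. GDF15 encodes a secreted stress cytokine of the TGF-beta superfamily. Its intensities were 1027 with siTTF-1 and 447 with siNTC in NCI-H209, and 79.4 with siTTF-1 and 61.1 with siNTC in Lu139. The siTTF-1 array was the higher one in each line, but GDF15 was far dimmer in Lu139. Its log2 fold change was 1.17 in NCI-H209, rank 13 from the highest, where 0.157% of genes were at least 2-fold higher. In Lu139 it was 0.30, rank 603. The mean was 0.73 (SD 0.62, n = 2 lines; limma 95% interval 0.27 to 1.19), with a limma adjusted p of 0.169. The value comes from a probe set of the class marked by the maker as open to cross-hybridisation (_x_at). Its other probe sets were below the expression limit in both lines, with 0.29 and 0.13 in NCI-H209, and in Lu139 with 0.09 and 0.07. As the mean of all 3 probe sets GDF15 had 0.53 in NCI-H209, no longer 1.5-fold.

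The GADD45 proteins bind kinases and cell cycle regulators under stress, and GADD45A is the one classically induced by p53. GADD45A had intensities of 2367 with siTTF-1 and 1616 with siNTC in NCI-H209, and 2514 with siTTF-1 and 2071 with siNTC in Lu139. The siTTF-1 array was the higher one in each line. The log2 fold changes of 0.54 and 0.28 ranked 200 and 747 from the highest, with a mean of 0.41 (SD 0.19, n = 2 lines; limma 95% interval 0.19 to 0.63; adjusted p = 0.143). GADD45A was read by 1 probe set, so no other could bear on this value. GADD45B, better known as a target of TGF-beta and NF-kappaB signalling, had 0.21 in NCI-H209 and -0.003 in Lu139. All 4 of its probe sets were higher in NCI-H209 and 3 in Lu139, where only 2 of the 4 were above the expression limit. GADD45G had 0.05 and -0.07.

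The antiproliferative BTG/TOB proteins bind the CCR4-NOT deadenylase, which shortens the tails of mRNAs. TOB1 had intensities of 2123 with siTTF-1 and 1775 with siNTC in NCI-H209, and 2483 with siTTF-1 and 2130 with siNTC in Lu139. Its log2 fold changes were nearly the same in both lines, 0.26 and 0.22 (limma adjusted p = 0.23), and its dimmer probe set was also higher in both (0.52 and 0.12). BTG1 had 0.17 in NCI-H209 and -0.02 in Lu139. SERTAD1, which encodes a cofactor of E2F and CDK4, had 0.22 and -0.03. PLK3, a stress-responsive kinase of the polo family, had 0.06 and 0.03, and PLK2 was below the expression limit on all 4 arrays, at 9.33 with siTTF-1 and 10.4 with siNTC in NCI-H209 and 6.16 with siTTF-1 and 5.26 with siNTC in Lu139.

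CCNG2, a cyclin of quiescent cells that is better known as a FOXO target, was lower rather than higher. It had intensities of 860 with siTTF-1 and 974 with siNTC in NCI-H209, and 596 with siTTF-1 and 827 with siNTC in Lu139. The log2 fold changes were -0.17 and -0.46 (mean -0.32, SD 0.20, n = 2 lines; limma adjusted p = 0.241). In Lu139 4 of its 5 probe sets were lower, and in NCI-H209 3 of 5, where 3 of the values lay between -0.08 and 0.02. CCNG1 and CCNG2, the paralogous G-type cyclins, thus had values of opposite sign in both lines.

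The DNA repair members had no positive value above 0.09. XPC and DDB2 encode the damage sensors of global nucleotide excision repair, and POLH a polymerase that copies past ultraviolet lesions. XPC had intensities of 315 with siTTF-1 and 439 with siNTC in NCI-H209, a log2 fold change of -0.46. In Lu139 it had 443 with siTTF-1 and 439 with siNTC, a value of 0.01. DDB2 had -0.06 and -0.12. POLH had -0.05 and 0.09 on its brightest probe set, while its 6 probe sets ran from -0.11 to 0.61 in NCI-H209 and from -0.18 to 0.24 in Lu139. With these probe sets, no single direction can be given for POLH.

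Of 8 members linked to cell death and survival and expressed in both lines, 4 were higher in both, 1 lower in both and 2 of opposite sign, and EDA2R was equal, against 37.7% higher and 27.5% lower in both among all genes. PERP encodes a desmosomal tetraspan protein that p53 and p63 induce. It had intensities of 10315 with siTTF-1 and 8714 with siNTC in NCI-H209, and 517 with siTTF-1 and 451 with siNTC in Lu139. Its log2 fold changes were 0.24 and 0.19 (limma adjusted p = 0.26). Its second brightest probe set had 0.49 in NCI-H209 and -0.01 in Lu139. In NCI-H209 4 of its 5 probe sets were higher with siTTF-1, but in Lu139 1 of 5. Only 2 of the 5 were above the expression limit in Lu139, those with 0.19 and -0.01. SPATA18 encodes a protein of mitochondrial quality control. It was dim, at 71.1 with siTTF-1 and 56.1 with siNTC in NCI-H209, and at 37.7 with siTTF-1 and 23.2 with siNTC in Lu139, where it was below the expression limit. Its log2 fold changes were 0.26 and 0.43, with a limma adjusted p of 0.16 that rests in part on these values below the limit. The other positive values were those of PHLDA3, an inhibitor of AKT (0.18 and 0.11), AEN, an apoptosis-enhancing nuclease (0.12 and 0.05), and TRIAP1, an inhibitor of apoptosome formation (0.09 and 0.08).

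ZMAT3, an RNA-binding protein that p53 induces, was lower in both lines. Its intensities were 359 with siTTF-1 and 431 with siNTC in NCI-H209, and 201 with siTTF-1 and 297 with siNTC in Lu139. The log2 fold changes were -0.25 and -0.52 (mean -0.39, SD 0.19, n = 2 lines; limma 95% interval -0.65 to -0.12; adjusted p = 0.198). All 5 of its probe sets were lower in Lu139 and 4 of 5 in NCI-H209. TP53INP1, a stress-induced partner of p53, had 0.09 and -0.12, and RPS27L, a ribosomal protein paralog, had -0.15 and 0.08. EDA2R, a receptor for ectodysplasin, was listed at exactly the same intensity with siTTF-1 and siNTC, 58.2 in NCI-H209 and 72.9 in Lu139. Such exact equality was found for 2416 probe sets in NCI-H209 and 2206 in Lu139, and it cannot be read as a measured lack of difference.

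**Figure D3:**
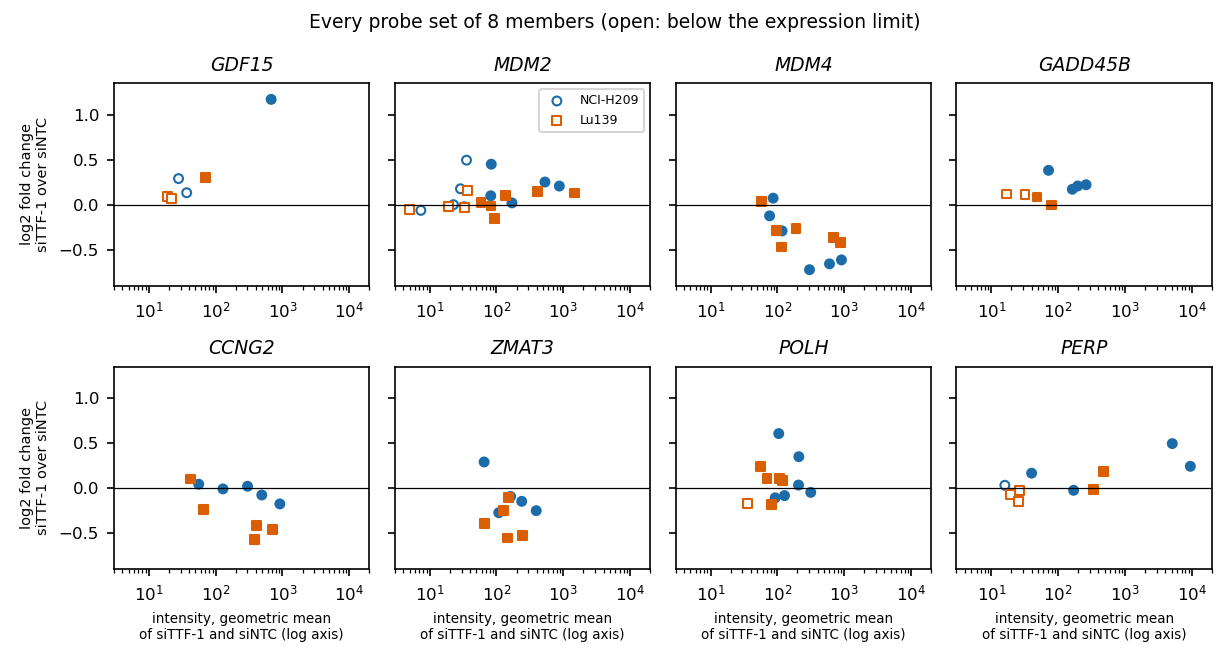
Log2 fold change, siTTF-1 over siNTC (vertical axis), against intensity (geometric mean of the siTTF-1 and siNTC arrays, log axis) for every probe set of 8 members, with circles for NCI-H209, squares for Lu139 and open symbols below the expression limit. GDF15 has 1 bright probe set at 1.17 and dim ones at 0.29 and 0.13 in NCI-H209, whereas the brighter probe sets of MDM4 all lie below 0 in both lines.

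Of the members that act in redox and lipid metabolism, SESN1 and ACER2 were higher in both lines. SESN1 encodes a sestrin, a leucine-regulated inhibitor of mTORC1. It had intensities of 325 with siTTF-1 and 278 with siNTC in NCI-H209, and 163 with siTTF-1 and 142 with siNTC in Lu139. These gave 0.21 and 0.18 on the log2 scale (limma adjusted p = 0.371). ACER2 encodes an alkaline ceramidase of the Golgi. It had 166 with siTTF-1 and 131 with siNTC in NCI-H209, and 173 with siTTF-1 and 150 with siNTC in Lu139. Its log2 fold changes were 0.30 and 0.19 (limma adjusted p = 0.289). TP53I3, a quinone oxidoreductase gene also called PIG3, went the other way in NCI-H209. It had 560 with siTTF-1 and 781 with siNTC there, a log2 fold change of -0.47, and 65.5 with siTTF-1 and 62.3 with siNTC in Lu139, a value of 0.06.

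The rest of the pathway was read from a hand-written list of 60 other genes described as p53 targets, of which 56 had a value and 51 were tested. None passed limma over all genes, and the smallest adjusted p was 0.105, that of SYTL1. SYTL1 alone passed with quantile normalization over the 4 arrays (limma adjusted p = 0.0401) or within each line (0.0499). At an unadjusted p under 0.05, 12 were higher (23.5%) and 4 lower (7.84%), against 7.23% and 9.25% of all genes. Without the line term 0.0206% of all genes were higher at that p. This list too was chosen with earlier results of these data known, so its shares do not test it. Of the 47 genes expressed in both lines 24 were higher in both, 11 lower in both and 12 of opposite sign, against 37.7%, 27.5% and 34.8% of all genes. Their median log2 fold change was 0.06 in NCI-H209 and 0.11 in Lu139. None was at least 1.5-fold changed the same way in both lines. The highest by mean were SYTL1 (0.69 in NCI-H209 and 0.58 in Lu139), the iron reductase gene STEAP3 (0.58 and 0.55) and the phosphatase gene DUSP14 (0.45 and 0.56). The lowest were RRM2B, the p53-induced subunit of ribonucleotide reductase (-0.66 and -0.30), the ubiquitin ligase gene FBXW7 (-0.59 and -0.20) and VCAN, which had -0.70 in Lu139 and 0.04 in NCI-H209, where it was not expressed. Among classical apoptotic targets, BAX had -0.14 and -0.04, and PMAIP1, which encodes NOXA, had 0.45 and 0.10.

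**Figure D4:**
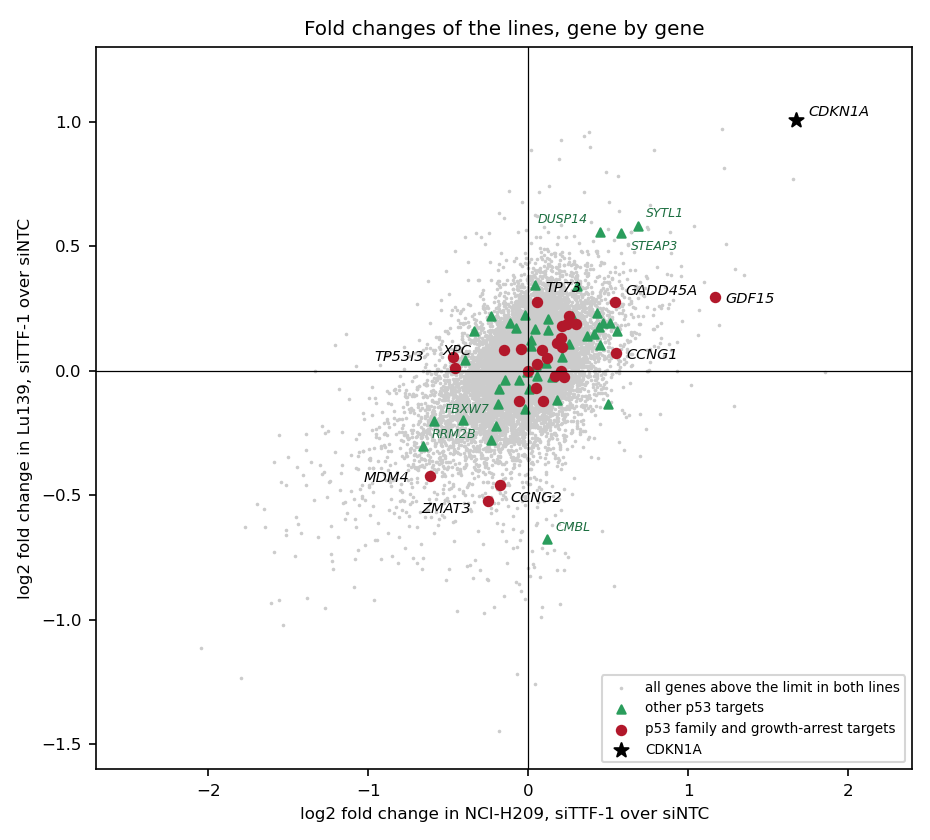
Log2 fold change, siTTF-1 over siNTC, in NCI-H209 (horizontal axis) and Lu139 (vertical axis) for the 13306 genes expressed in both lines (grey), the members (red circles), other p53 targets (green triangles) and CDKN1A (star). CDKN1A lies at 1.67 and 1.01, apart from the members, most of which lie within the grey cloud.

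Between the lines 22 of the 29 members passed limma, against 70.5% of all genes, a share near that of the members. Over all genes tested, the median difference, Lu139 minus NCI-H209, was -0.28 on the log2 scale with the deposited values, and 51.7% of genes passed limma as lower in Lu139 and 18.7% as higher. Quantile normalization over the 4 arrays moved that median to 0.04, and the share of calls that were higher in Lu139 was then 52.8%, against 26.6% with the deposited values. Small differences between the lines therefore depend on the scaling. With the deposited values 18 of the 29 members were lower in Lu139 and 4 higher. With quantile normalization 15 were lower and 10 higher, against 32.8% and 36.7% of all genes. The same direction passed under both scalings for 15 lower members and 4 higher ones, against 32.9% and 18.8% of all genes. Exactly equal intensities occurred within each line but in 0 probe sets between arrays of different lines, and what this means for differences between lines was not tested.

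PERP had the largest difference on its brightest probe set. It had 517 and 451 in the siTTF-1 and siNTC arrays of Lu139, against 10315 and 8714 in those of NCI-H209. Its log2 difference was -4.24 (limma 95% interval -4.43 to -4.06; adjusted p = 1.62e-07), or 18.9-fold lower in Lu139, and 4 of its 5 probe sets were lower. On the same arrays TP53I3 had 65.5 and 62.3 in Lu139, against 560 and 781 in NCI-H209, a log2 difference of -3.04 (adjusted p = 2.59e-06 in limma). On them GDF15 had 79.4 and 61.1 in Lu139, against 1027 and 447 in NCI-H209, a log2 difference of -2.98 (adjusted p = 1.12e-05 in limma). With quantile normalization the differences of these 3 genes were -3.86, -2.72 and -2.64. As the mean of all probe sets, PERP had -2.09 and GDF15 -1.25, and both still passed, but TP53I3, read by 1 probe set, then had the largest difference.

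The other 12 members lower in Lu139 under both scalings were TP53INP1 (-1.64 as deposited), POLH (-1.29), GADD45G (-1.23), RPS27L (-1.22), CCNG1 (-1.17), DDB2 (-1.14), GADD45B (-1.14), SERTAD1 (-1.02), BTG1 (-0.96), SESN1 (-0.91), SPATA18 (-0.75) and TP73 (-0.57). SPATA18 was below the expression limit in Lu139 and was tested only through its level in NCI-H209, so its call had to run this way. As the mean of its probe sets TP73 had -0.10 and no longer passed (limma adjusted p = 0.253). CDKN1A itself was lower in Lu139 (-0.86, limma adjusted p = 0.00223). In a fit without the siRNA term the same difference did not pass (limma adjusted p = 0.245). That fit counts the siRNA effect, large for CDKN1A, as scatter, so a larger p-value was built in. MDM2 was the member with the largest positive difference. It had 1541 and 1407 in the siTTF-1 and siNTC arrays of Lu139, against 939 and 811 in those of NCI-H209, a log2 difference of 0.74 (limma adjusted p = 2.67e-04). Its probe sets did not bear this out evenly: 6 of 10 were higher in Lu139, the second brightest had -0.34, and the mean of all 10 gave 0.07 (limma adjusted p = 0.446). TOB1 (0.24), PLK3 (0.41) and EDA2R (0.25) were the other members higher in Lu139 under both scalings. As deposited, the siTTF-1 and siNTC values of EDA2R were exactly equal within each line. Its call therefore rests on no measured scatter of its own. PLK3 and EDA2R were dim, and neither entered the test with the expression limit set higher, at the 60th percentile. TOB1 was lower in Lu139 as the mean of its probe sets (-0.42), and without the siRNA term the same difference of 0.24 did not pass (limma adjusted p = 0.152).

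**Figure D5:**
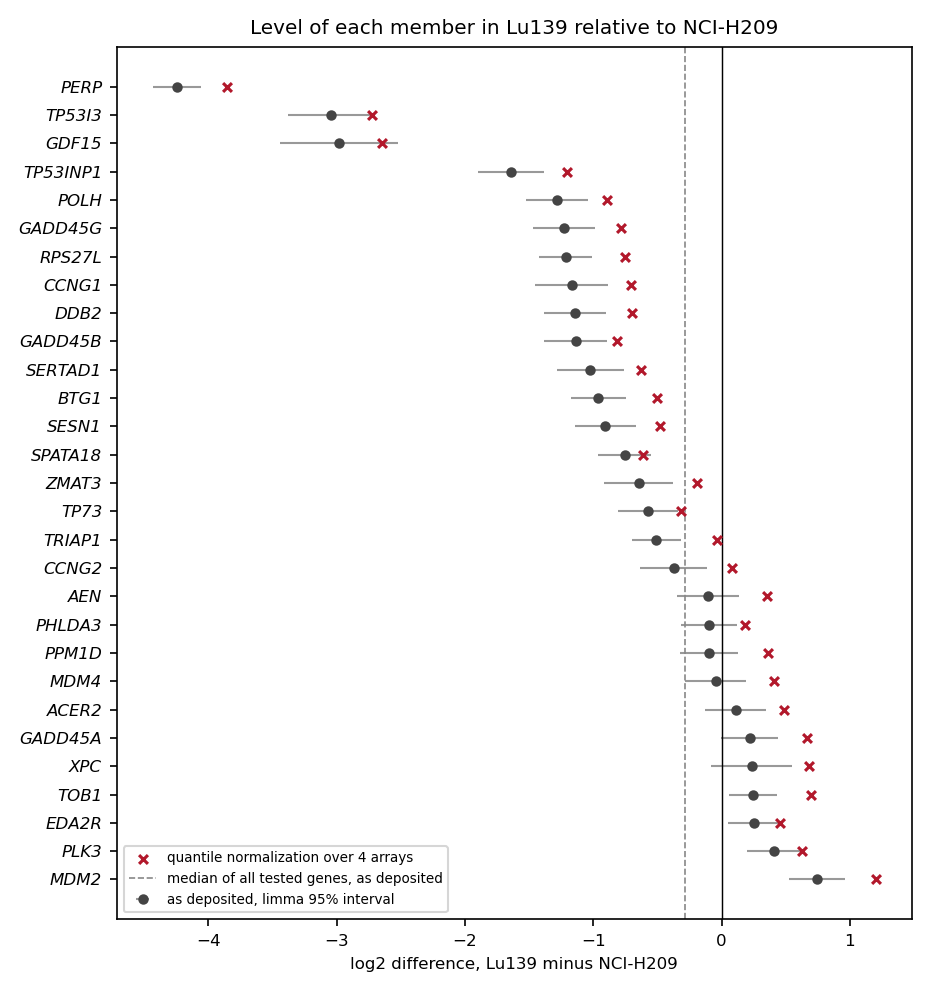
Log2 difference in level, Lu139 minus NCI-H209 (horizontal axis), of the 29 tested members, with the limma 95% interval (bars, 4 arrays) for the deposited values and crosses for quantile normalization over the 4 arrays. PERP, TP53I3 and GDF15 lie at -4.24, -3.04 and -2.98, and every cross lies to the right of its point.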

How the data were processed

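RNA of 4 groups of cells was hybridised to 1 Affymetrix array each. Each deposited value is the intensity of a probe set, not on a log scale. The submitters' processing notes name Affymetrix Expression Console; its version, summarisation and normalization, and any build, were not given in the sources used here.

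Of 54675 probe sets, 41091 had 1 gene symbol, 1801 several and 11721 none, and 62 were controls. Symbols were updated by gene ID through RefSeq for 41037. Each gene was read from its brightest probe set by mean log2 value. The pseudocount of 18.7 was the 25th percentile of all values, and the expression limit the 40th percentile of mean log2 values. limma 3.58.1 in R 4.3.3 fitted line and siRNA with an intensity trend, 1 residual and 5.91 prior degrees of freedom and Benjamini-Hochberg adjustment; tests were two-sided. The fit was also run on simulated data with independent noise and the same siRNA effect in both lines. That simulation held none of the exactly equal intensities of these arrays, and its outcome is not given here. Figures used matplotlib 3.10.9 in Python 3.11.15.

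The members and lists were chosen with earlier results of these data known. All members are named, with CDKN1A, NKX2-1 and, of other p53 targets, the 3 highest and 3 lowest by mean. BAX, PMAIP1, APAF1, FAS, TNFRSF10B and BBC3 were added after the values of that list were seen. Alternatives varied pseudocount, limit, probe set rule, normalization and model terms.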

Additional observations from a re-analysis of the deposited data

Results flagged for a closer look

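In 9 members the siTTF-1 log2 fold change had opposite signs in the lines; with 1 array per siRNA in each line the difference was not tested. Taken as NCI-H209 minus Lu139, it was 0.21 for GADD45B, 0.115 for GADD45G, 0.191 for BTG1, 0.25 for SERTAD1 and 0.214 for TP53INP1, all higher in NCI-H209. It was -0.468 for XPC, -0.132 for POLH, -0.236 for RPS27L and -0.524 for TP53I3. Among all genes expressed in both lines, 34.8% had opposite signs. XPC and TP53I3 stood out by size, at -0.46 and -0.47 in NCI-H209 against 0.01 and 0.06 in Lu139, each on 1 probe set.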

How the results depend on the processing

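No member passed limma for the siTTF-1 effect under any of the 8 alternatives. One of these drops the line term and so leaves the difference between the lines in the scatter. In the others the limma adjusted p ran from 0.0725 to 0.218 for MDM4 and from 0.0967 to 0.240 for GADD45A. For GDF15 it ran from 0.105 to 0.267. CDKN1A passed with the limit at the 60th percentile (mean 1.34, adjusted p = 0.0381) and with quantile normalization over 4 arrays (1.37, 0.0246) or within each line (1.37, 0.0335). Genes called went from 0 higher and 0 lower to 6 and 32 with the limit at the 60th percentile, 17 and 49 with quantile normalization over 4 arrays and 13 and 40 within each line. Without the line term (no replicate block), members at an unadjusted p under 0.05 went to 0 higher and 0 lower, against 0.0206% and 0.117% of all genes. With the mean of all probe sets 1 member was lower, against 8.77% of all genes. No other paired analysis was possible because the labels number no replicates.

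With the mean of all probe sets, 0 members were 1.5-fold higher and 0 lower in NCI-H209, and 83 and 320 genes were; in Lu139 14 and 53 genes were. MDM4 was inside 1.5-fold with both quantile normalizations, leaving 0 members lower. Genes 1.5-fold higher in Lu139 numbered 41 with the lower pseudocount and 48 with quantile normalization over 4 arrays. Reversed means, all near 0, were those of TP53INP1 (0.054 by mean of probe sets, 0.035 with quantile normalization over 4 arrays and 0.038 within each line), RPS27L (0.0019 by mean of probe sets) and GADD45G (0.039 over 4 arrays and 0.040 within each line).

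Between lines, quantile normalization over 4 arrays gave 5336 genes higher and 4772 lower in Lu139 and 10 members higher, and reversed MDM4 (0.41), PPM1D (0.36), CCNG2 (0.080), AEN (0.35) and PHLDA3 (0.18). The mean of probe sets reversed TOB1 (-0.42). With that mean 2 of 28 members tested were higher in Lu139, against 2531 of 13517 genes. With the limit at the 60th percentile 2 of 26 were, against 2094 of 10998 genes, and PLK3 and EDA2R did not enter that test. Where the cause of a move is not given by the construction of the alternative, the cause was not tested.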

Other observations

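Within a line, the intensities of 1639 probe sets in NCI-H209 (3.0%) and 1590 in Lu139 (2.91%) differed between siTTF-1 and siNTC by a whole number other than 0, to within 0.0015. Between lines with the same siRNA this held for 0.285% of probe sets with siTTF-1 and 0.316% with siNTC. The probe sets of GADD45G, PLK3 and AEN were among them in NCI-H209, and those of PPM1D, CCNG1 and GADD45A in Lu139. What these whole-number differences mean for fold changes within a line, or for differences between lines and their p-values, was not tested.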
